A study of Arabidopsis thaliana with 9 samples.

Results

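Transcripts that are abundant in 2 of the 9 arrays of this root study, are not annotated to the plastid genome, and also give a low but readable signal in the other 7, numbered 135 of the 22746 plant probe sets on the array. A probe set is a group of short probes that together measure 1 transcript. The 9 Affymetrix ATH1 arrays each measured total RNA of 1 sample labelled whole root, from Arabidopsis thaliana plants 7 days after germination on MS medium in long days. There were 3 arrays of SCL3 OE, a gain-of-function line that overexpresses SCL3, 3 of scl3, a loss-of-function mutant (allele scl3-1), and 3 of wild-type Col-0, the background that all groups share. The promoter and the number of lines behind SCL3 OE are not given in the sources used here. SCL3 is a GRAS-family regulator known for its role in gibberellin signalling and in the root ground tissue.

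The members were chosen from their signals. A probe set qualified when the lower of its signals in the scl3 and Col-0 replicate 3 arrays was at least 16 times the highest of the other 7 arrays, and that highest was at least 50. Control probe sets and those annotated to the plastid genome were left out. Signals are linear MAS5 intensities, scaled on each array by the authors. The contrast of replicate 3 with the other arrays is therefore fixed by the choice and is given as a description, with no test. The annotation named 1 gene for 51 members, several genes for 2 and none for 82, so most members can be described only as probe sets. The 51 named genes lie on all 5 nuclear chromosomes, with between 8 and 15 on each.

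The chloroplast builds its photosynthetic machinery from proteins encoded in both the nucleus and the plastid. Light-harvesting proteins pass energy to photosystems II and I, electron transport drives ATP synthesis, and the Calvin cycle uses the products to fix carbon dioxide. Photorespiration recovers carbon lost when Rubisco takes up oxygen. Nuclear genes for these steps are strongly expressed in green leaves and at low levels in roots, where plastids are mostly not green.

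The replicate 3 arrays hold abundant leaf transcripts although their label is whole root. Summed signals of the members took 7.48% of all plant signal in scl3 replicate 3 and 7.71% in Col-0 replicate 3, against 0.0769% to 0.194% in the other 7 arrays, a gap that the choice of members fixes. The root hair wall genes EXPA7 and EXPA18, the 2 named of 5 listed root hair markers, had a summed signal of 898 in scl3 and 589 in Col-0 replicate 3, against 2228 to 2979 in the other 7. The summed signal of the 2 listed cortex genes went the other way, with 1064 in scl3 and 1442 in Col-0 replicate 3, against 205 to 298 in the other 7. AT1G62500 carried that sum, at 992 in scl3 and 1362 in Col-0 replicate 3, against 69.8 to 183 in the other 7. JKD read 72.1 in scl3 and 80.4 in Col-0 replicate 3, against 88.5 to 206 in the other 7. The 2 cortex genes thus disagreed in direction. Listed markers of guard cells, trichomes, leaf epidermis, endodermis and root cap had no named probe set, so they could not be read. Signals of the 45 spike-in control probe sets correlated at 0.80 to 0.88 between SCL3 OE arrays and replicates 1 and 2 of scl3 and Col-0, against 0.98 to 0.99 within those 4 arrays and 0.99 among the SCL3 OE arrays. They correlated at 0.95 to 0.98 between SCL3 OE and replicate 3 of scl3 and Col-0, and at 0.85 to 0.90 between replicate 3 and replicates 1 and 2, so in spike-in signals SCL3 OE was closer to the replicate 3 arrays. The part of this in the member signals was not tested. Genotype and array set therefore cannot be told apart for SCL3 OE. Replicate 3 of scl3 and Col-0 is kept out of the tests below. They compare the 3 SCL3 OE arrays with replicates 1 and 2 of scl3 and Col-0, called the 4 clean root arrays. That name is a short label only, and leaf RNA in these arrays or in SCL3 OE was not tested for.

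In the 135 members, the replicate 3 mean signal ran from 1032 to 38287, with a median of 6882. Their highest signal in the other 7 arrays ran from 50.2 to 1699, with a median of 131. The ratio that chose them had a median of 32.3 and a maximum of 260. Named members just inside the threshold were UGT88A1, a UDP-glycosyltransferase gene (16.6), AT5G01740 (17.0) and SWEET1, a sugar transporter gene (17.9). Just outside lay AT5G52970 (15.7), AT1G65230 (15.5) and BGLU44 (15.5). Another 167 probe sets not annotated to the plastid genome met the same ratio with a highest signal under 50.

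SCL3 OE roots gave a higher signal than the clean roots for more of these leaf transcripts than they gave a lower one. Summed over the members, the signal was 28986, 26495 and 22805 in the SCL3 OE arrays, against 12330 and 14985 in scl3 and 13225 and 14462 in Col-0, replicates 1 and 2. The 3 SCL3 OE sums all lay above the 4 others, which overlapped between scl3 and Col-0. All 3 SCL3 OE arrays lay above all 4 clean root arrays for 70 members (51.9%) and below all 4 for 17 (12.6%). Over all plant probe sets the same was true of 17.9% above and 18.5% below. The remaining 48 members overlapped. The floor of 50 admits a dim member through whichever group is high, which all plant probe sets did not have to pass. It was reached by SCL3 OE arrays alone for 16 members (12 above, 0 below), by clean root arrays alone for 22 (0 above, 12 below) and by both for 97 (58 above, 5 below). The median log2 difference, SCL3 OE minus clean roots, was 0.68 over the members and -0.01 over all plant probe sets. In whole-organ RNA, fewer cells of a type and less RNA per cell cannot be told apart.

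Without a filter on low signal, 78 of the 135 members passed an adjusted p of 0.05 in limma (a linear model with variance shared across probe sets, Benjamini-Hochberg adjustment), 61 higher and 17 lower in SCL3 OE. Over all plant probe sets 29.6% were called, 14.6% higher and 15% lower. The planned fit first removed probe sets with a mean signal below 101.5 in the 7 arrays. It tested 55 members and called 49, 46 higher and 3 lower, where 46.8% of the probe sets tested were called, 24.3% higher and 22.5% lower. Members high in SCL3 OE pass that filter more easily, so counts over the 55 are not counts over the members. Of the 78 called without it, 6 higher and 0 lower came from the members that reached 50 in SCL3 OE alone, 0 higher and 12 lower from those that reached it in clean roots alone, and 55 higher and 5 lower from those that reached it in both. P-values measure the spread between these arrays, which the series text calls biological triplicates.

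**Figure D1:**
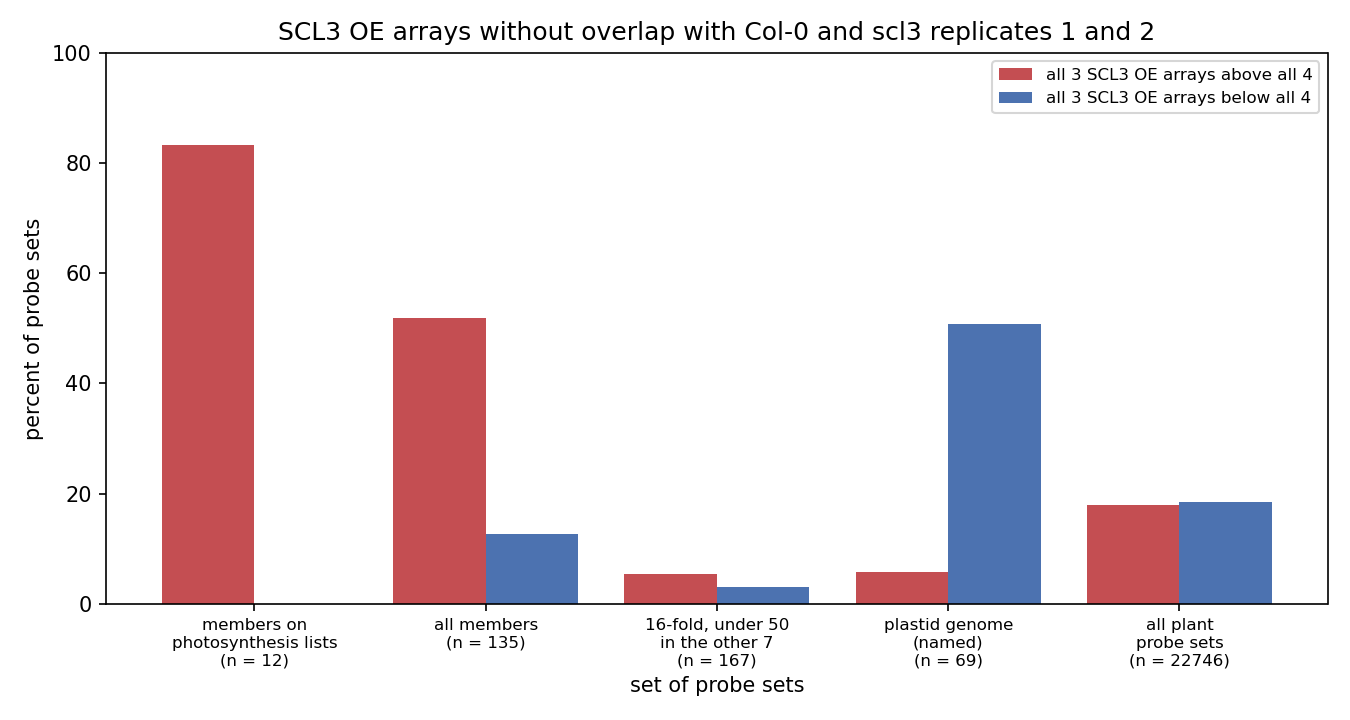
Bars give the percent of probe sets whose 3 SCL3 OE arrays all lay above (red) or all below (blue) the 4 clean root arrays, for 5 sets of probe sets with their numbers. Members lay above in 51.9% and below in 12.6%, against 17.9% and 18.5% of all plant probe sets.

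Photosystem I was represented by 2 subunits. PSAN is a subunit on the lumen side, where plastocyanin delivers electrons. Its signal was 406, 358 and 335 in SCL3 OE, against 106 and 118 in scl3 and 78.6 and 138 in Col-0, replicates 1 and 2. PSAE-1 encodes a stromal subunit near the ferredoxin site, and had signals of 161, 199 and 122 in SCL3 OE, against 59.6 and 117 in scl3 and 56.3 and 97.0 in Col-0. The SCL3 OE arrays lay above the clean roots for both genes, by a narrow margin for PSAE-1. The log2 difference was 1.75 ± 0.18 (SE, 3 arrays against 4, limma adjusted p = 1.39e-05) for PSAN and 1.00 ± 0.27 (limma adjusted p = 0.01093) for PSAE-1. The clean root mean of PSAE-1 lay under the filter, and without the filter its limma adjusted p was 0.02659. In replicate 3, PSAN reached 14531 in scl3 and 14613 in Col-0, and PSAE-1 reached 15310 in scl3 and 17495 in Col-0.

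Photosystem II was represented by PSBY and PSBW, small membrane subunits, and by PSB27, a lumenal factor of photosystem II assembly and repair. PSBY had signals of 380, 305 and 234 in SCL3 OE, against 98.7 and 113 in scl3 and 126 and 102 in Col-0. For PSBW they were 183, 254 and 167 in SCL3 OE, against 126 and 135 in scl3 and 99.2 and 97.8 in Col-0. PSB27 gave 226, 213 and 152 in SCL3 OE, against 65.3 and 86.0 in scl3 and 66.6 and 84.1 in Col-0. No SCL3 OE array of the 3 genes overlapped a clean root array. In limma PSBY rose by 1.45 ± 0.17 (log2, SE), PSB27 by 1.36 ± 0.20 and PSBW by 0.80 ± 0.17, with adjusted p of 4.347e-05, 0.0001616 and 0.002158 in that order. The clean root mean of PSB27 lay under the filter, and without the filter its limma adjusted p was 0.00075.

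LHCB4.1 and LHCB4.2 encode CP29, a minor antenna protein between the main antenna and the photosystem II core. The signal of LHCB4.1 was 714, 636 and 599 in SCL3 OE, against 247 and 295 in scl3 and 193 and 297 in Col-0. That of LHCB4.2 was 260, 251 and 190 in SCL3 OE, against 91.7 and 67.1 in scl3 and 81.9 and 120 in Col-0. In replicate 3 LHCB4.1 read 19042 in scl3 and 19894 in Col-0, and LHCB4.2 read 15031 in scl3 and 18514 in Col-0. The SCL3 OE arrays stood clear of the clean roots for both, by 1.35 ± 0.14 (limma adjusted p = 1.94e-05) for LHCB4.1 and 1.38 ± 0.19 (limma adjusted p = 0.0001263) for LHCB4.2 on the log2 scale. The clean root mean of LHCB4.2 lay under the filter, and without the filter its limma adjusted p was 0.0005389. LHCB4.3, another CP29 gene and no member, had signals of 137, 119 and 86.3 in SCL3 OE, against 44.4 and 100 in scl3 and 97.6 and 66.9 in Col-0, which overlapped.

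Carbon fixation was represented by 3 members. RCA, the activase that frees Rubisco of inhibitory sugar phosphates, had signals of 1131, 987 and 875 in SCL3 OE, against 212 and 380 in scl3 and 254 and 301 in Col-0. Its lowest SCL3 OE array was above every clean root array, and the log2 difference was 1.82 ± 0.17 (SE, limma adjusted p = 7.117e-06). SBPASE, which removes a phosphate in the regeneration of the carbon dioxide acceptor, had 62.7, 79.1 and 55.9 in SCL3 OE, against 35.6 and 84.3 in scl3 and 59.6 and 28 in Col-0. PRK, which makes that acceptor, had 35.2, 45.2 and 17.6 in SCL3 OE, against 17.0 and 25.2 in scl3 and 39.6 and 54.7 in Col-0. For SBPASE and PRK the groups overlapped, with log2 differences of 0.45 ± 0.38 and -0.03 ± 0.42 and limma adjusted p of 0.4326 and 0.9702 without the filter. In replicate 3 both were plainly read, PRK at 9339 in scl3 and 7135 in Col-0, and SBPASE at 5592 in scl3 and 6243 in Col-0.

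Photorespiration and chlorophyll synthesis were each covered by dim members. HPR, the peroxisomal hydroxypyruvate reductase of photorespiration, had signals of 252, 123 and 159 in SCL3 OE, against 29.3 and 64.6 in scl3 and 26.3 and 39.5 in Col-0. PORB, a light-dependent enzyme of chlorophyll synthesis, had 131, 95.0 and 73.3 in SCL3 OE, against 25.6 and 51.3 in scl3 and 37.9 and 34.5 in Col-0. AT1G32470, on the photorespiration list, had 126, 107 and 96.5 in SCL3 OE, against 41.4 and 72 in scl3 and 81.5 and 89.8 in Col-0. The groups did not overlap for any of the 3, although AT1G32470 missed the threshold. Without the filter the log2 differences were 2.15 ± 0.35 for HPR (limma adjusted p = 0.0008899), 1.39 ± 0.33 for PORB (limma adjusted p = 0.009229) and 0.67 ± 0.25 for AT1G32470 (limma adjusted p = 0.07121).

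**Figure D2:**
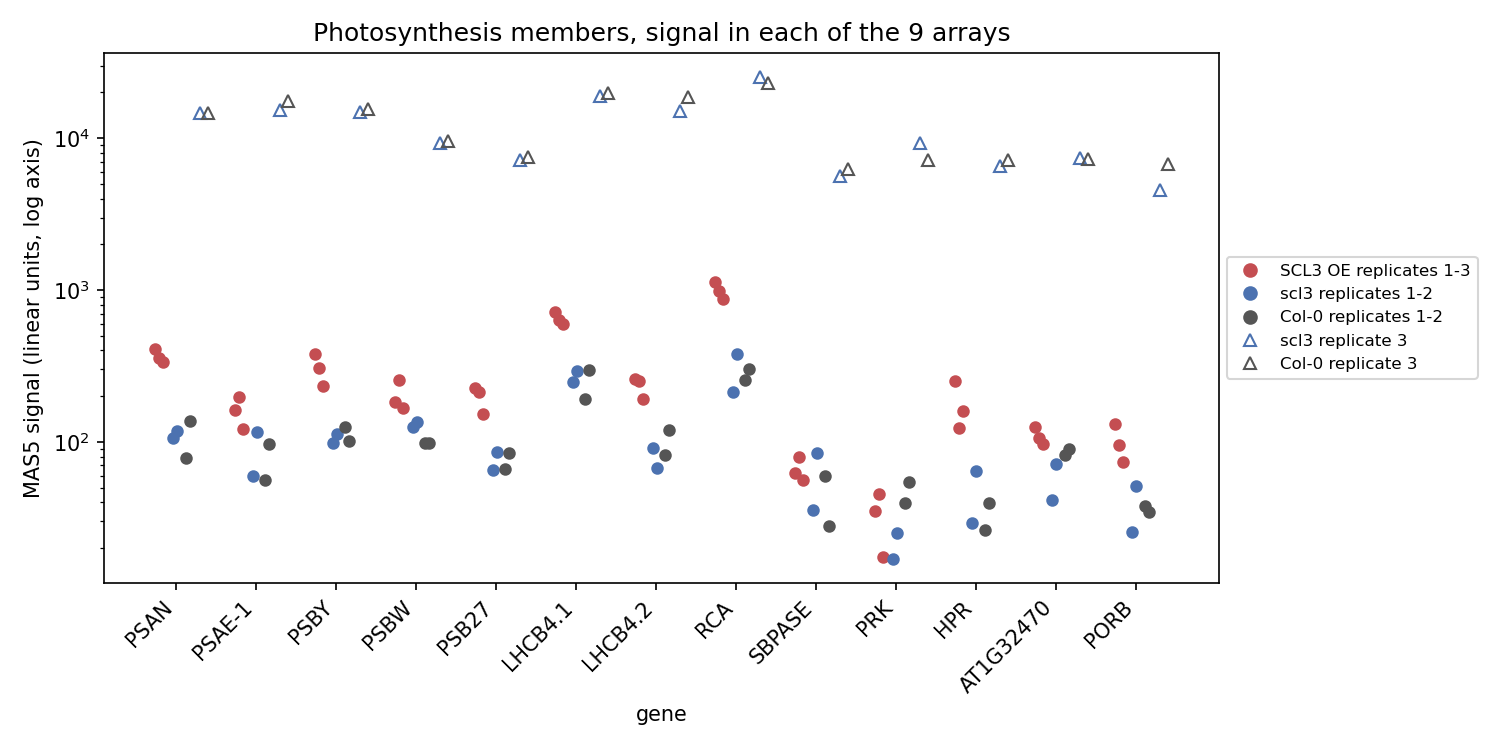
Signal (MAS5, log axis) of 13 members with a role in photosynthesis, 1 point per array, with SCL3 OE in red at the left of each gene, then scl3 and Col-0 replicates 1 and 2, and the replicate 3 arrays as open triangles. For RCA the SCL3 OE arrays sit between 875 and 1131, above the clean roots and far below the replicate 3 arrays at 25208 in scl3 and 22981 in Col-0.

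Across 8 photosynthesis lists with 107 genes, 19 genes had a named probe set, and 12 of these were members. SCL3 OE lay above all 4 clean root arrays for 10 of the 12 and below for 0, with a median log2 difference of 1.36. Over all plant probe sets 17.9% lay above and 18.5% below. Without the filter 9 of the 12 were called higher and 0 lower, where 14.6% of all plant probe sets were called higher and 15% lower. The other 7 named list genes, which did not meet the ratio, gave 6 above and 0 below, with a median of 1.26. The planned fit tested 6 of these 7 and called 6 higher, where 24.3% of the probe sets tested were called higher and 22.5% lower. ATPC1, the gamma subunit of the chloroplast ATP synthase, had 1183, 1020 and 989 in SCL3 OE, against 396 and 459 in scl3 and 412 and 517 in Col-0, a log2 difference of 1.26 ± 0.11 (limma adjusted p = 3.332e-06). CHLM, a methyltransferase of chlorophyll synthesis, differed by 1.76 ± 0.13 (limma adjusted p = 1.311e-06), and GSA1, an enzyme of the early pathway to chlorophyll and haem, by 0.40 ± 0.08 (limma adjusted p = 0.002298). AT1G80380, on the photorespiration list, differed by 1.66 ± 0.16 (limma adjusted p = 6.585e-06). It read 1935, 2568 and 2289 in SCL3 OE, above its replicate 3 signals of 1550 in scl3 and 1390 in Col-0. The other named list genes that were not members all read higher in replicate 3 than in SCL3 OE.

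Several members with a chloroplast role stood outside the lists. CaS, the thylakoid calcium-sensing protein, had 53.7, 47.8 and 35.8 in SCL3 OE, against 27.8 and 41.8 in scl3 and 34.6 and 50.1 in Col-0. LIL3:1, a light-harvesting-like protein needed for chlorophyll synthesis, had 77.6, 81.4 and 68.3 in SCL3 OE, against 56.8 and 48.4 in scl3 and 38 and 56.7 in Col-0. PIFI, which acts in electron flow around photosystem I, had 46.8, 81.8 and 59.2 in SCL3 OE, against 17.7 and 33.1 in scl3 and 36.9 and 31.5 in Col-0. The groups overlapped for CaS and stood apart for LIL3:1 and PIFI. PIFI reached the floor of 50 in SCL3 OE arrays alone, so its direction is partly fixed by its choice. PIFI was called without the filter, at 1.06 ± 0.36 (log2, SE, limma adjusted p = 0.04935), a call lost without any 1 of Col-0 replicate 1, Col-0 replicate 2, scl3 replicate 1, SCL3 OE replicate 2 or SCL3 OE replicate 3 (adjusted p from 0.07998 without Col-0 replicate 1 to 0.1996 without SCL3 OE replicate 2). LIL3:1 and CaS did not pass, with adjusted p of 0.1258 and 0.6381 in limma. CURT1C (AT1G52220), of a family that curves thylakoid membranes, had 92.5, 85.9 and 48.8 in SCL3 OE, against 38.5 and 35.6 in scl3 and 40.7 and 40.3 in Col-0, and missed the threshold without the filter (limma adjusted p = 0.05498). It too reached 50 in SCL3 OE arrays alone, as did THIC and CHLI2. CHLI2 is annotated as magnesium chelatase I2. Its signal was 20.1, 59.1 and 39.2 in SCL3 OE, against 3.78 and 33.2 in scl3 and 38.0 and 14.2 in Col-0. The groups overlapped, and without the filter CHLI2 was not called, at 1.07 ± 0.70 (log2, SE, limma adjusted p = 0.2957).

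Members with roles elsewhere in metabolism were mixed. UGT88A1 had 170, 148 and 134 in SCL3 OE, against 98.8 and 96.8 in scl3 and 88.9 and 87.8 in Col-0, and rose by 0.69 ± 0.16 (log2, SE, limma adjusted p = 0.003708). Its clean root mean lay under the filter, and without the filter its limma adjusted p was 0.01334. THIC, which makes the pyrimidine part of thiamin, had 59.7, 74.8 and 53.2 in SCL3 OE, against 44.2 and 34.4 in scl3 and 47.4 and 35.2 in Col-0, without overlap but with a limma adjusted p of 0.1577. SWEET1 had 72.5, 42.2 and 57.6 in SCL3 OE, against 60.2 and 37.7 in scl3 and 87.4 and 76.0 in Col-0, which overlapped. CCL, a gene known for an unstable, clock-regulated transcript, had 98.8, 106 and 130 in SCL3 OE, against 147 and 156 in scl3 and 107 and 114 in Col-0, also with overlap.

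The members with the highest signal in the roots include several that the annotation gives only a locus number. AT2G26500 had 531, 442 and 318 in SCL3 OE, against 162 and 200 in scl3 and 175 and 183 in Col-0, and rose by 1.22 ± 0.16 (log2, SE, limma adjusted p = 9.737e-05). AT1G51400 rose by 1.43 ± 0.13 (limma adjusted p = 6.752e-06) and AT4G16980 by 0.91 ± 0.13 (limma adjusted p = 0.0001612). The highest unnamed probe sets, chosen after their values were seen, were also higher in SCL3 OE. These probe sets and the named genes before them were picked by their highest root signal, which came from a SCL3 OE array for each. Their direction is therefore partly fixed by that choice, and their p-values are no independent test of it. Probe set 264474_s_at read 1699, 1448 and 1067 in SCL3 OE, against 263 and 739 in scl3 and 235 and 448 in Col-0. Probe set 257807_at read 1213, 890 and 784 in SCL3 OE, against 85.1 and 235 in scl3 and 133 and 140 in Col-0. Both stood clear of the clean roots, although scl3 replicate 2 was the highest clean root array for each. Their log2 differences were 1.87 ± 0.31 (SE, limma adjusted p = 0.0004763) for 264474_s_at and 2.76 ± 0.27 (limma adjusted p = 9.594e-06) for 257807_at.

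**Figure D3:**
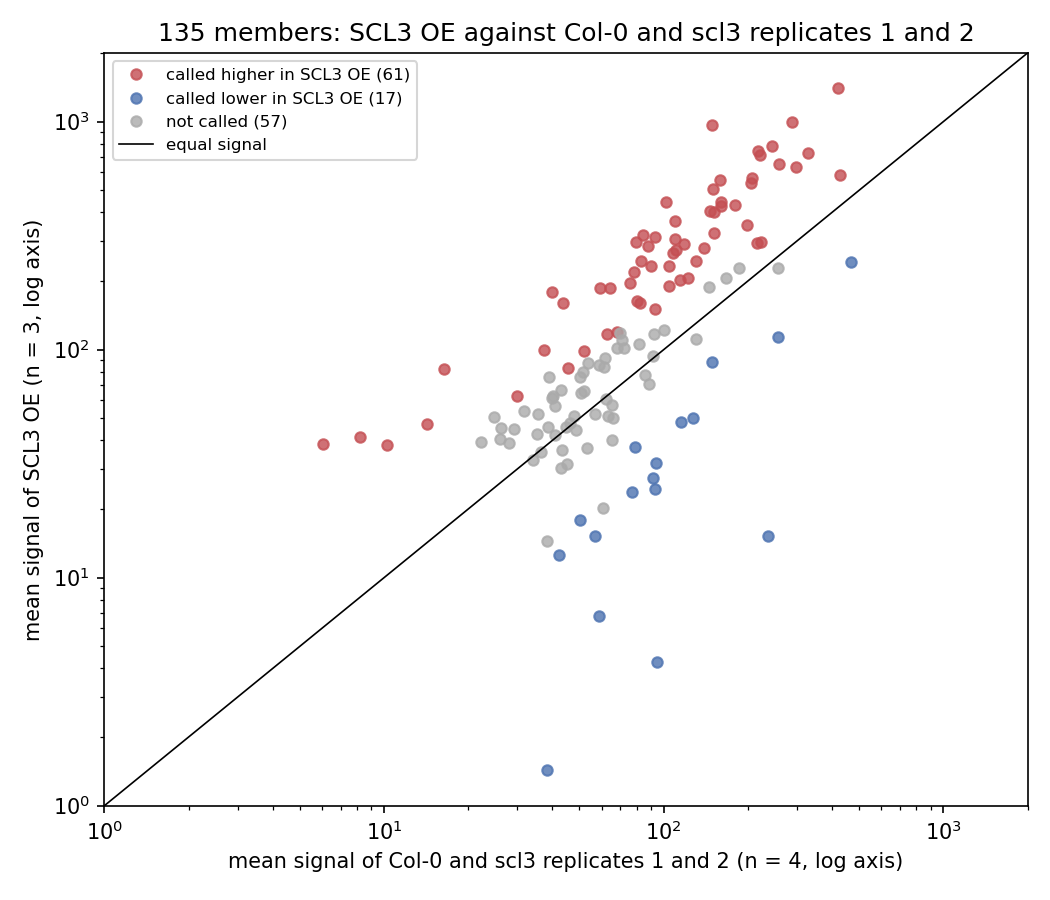
Each point is 1 of the 135 members, with its mean signal in SCL3 OE (n = 3) on the vertical log axis and in the 4 clean root arrays on the horizontal log axis, coloured by the limma call without the filter. Most of the bright members lie above the line of equal signal, and the 17 called lower fall below it.

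Members were also counted by their highest signal in the 7 arrays. Over all plant probe sets, SCL3 OE lay above for 17.9% and below for 18.5%. Of the 22 members whose highest signal in the 7 arrays was at least 400, SCL3 OE lay above for 20, below for 1 and overlapped for 1. From 200 to 400 there were 31 members, 25 above and 2 below. Of the 31 from 100 to 200, 11 lay above and 7 below, and of the 51 from 50 to 100, 14 above and 7 below. The highest of the 7 arrays is often a SCL3 OE array (97 of 135 members), so the bins are not independent of the difference. Members high in SCL3 OE are thereby sorted into the brighter bins, and no trend with root level is read from these counts. Among the 167 transcripts under 50, SCL3 OE lay above for 9 and below for 5, with a median log2 difference of 0.03.

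A smaller number of members went the other way. AT1G29670 had signals of 3.37, 3.23 and 6.22 in SCL3 OE, against 113 and 110 in scl3 and 80.6 and 76.8 in Col-0. AT1G29660, its direct neighbour on chromosome 1 with 0 genes between them in RefSeq's TAIR10.1 table, had 15.7, 3.35 and 1.33 in SCL3 OE, against 64.1 and 85.6 in scl3 and 52.5 and 33.3 in Col-0. Both were near the bottom of the scale in SCL3 OE and separate from the clean roots. Both reached the signal floor of the rule in clean root arrays alone, so their direction is partly fixed by their choice. They were also named after their values were seen, so their p-values are no independent test of that direction. Without the filter, AT1G29670 fell by 4.21 ± 0.39 (log2, SE, limma adjusted p = 2.193e-05) and AT1G29660 fell by 3.36 ± 0.64 (limma adjusted p = 0.002502). These sizes depend on the constant added before the logarithm: with 32 in place of 1 the log2 differences were -1.80 and -1.21. Both genes were abundant in replicate 3, AT1G29670 at 6940 in scl3 and 7658 in Col-0, and AT1G29660 at 1767 in scl3 and 1620 in Col-0.

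AT4G10270 had 18.2, 24.3 and 28.5 in SCL3 OE, against 91.5 and 73.5 in scl3 and 75.8 and 68.4 in Col-0. AT1G09310 had 31.7, 22.6 and 27.9 in SCL3 OE, against 68.6 and 183 in scl3 and 57.9 and 56.3 in Col-0. AT1G04800 had 9.77, 17.4 and 26.7 in SCL3 OE, against 43.7 and 51.8 in scl3 and 62 and 42.6 in Col-0. None of these overlapped, and the highest AT1G09310 value came from scl3 replicate 2 alone. Without the filter AT4G10270 fell by 1.68 ± 0.30, AT1G09310 by 1.53 ± 0.36 and AT1G04800 by 1.52 ± 0.42 on the log2 scale, with limma adjusted p of 0.001802, 0.00915 and 0.01888. AT2G41090 had 48.2, 45.7 and 18.7 in SCL3 OE, against 82.2 and 71.4 in scl3 and 76.3 and 86.2 in Col-0 (limma adjusted p = 0.03159). These genes were named after their values were seen, and they, AT1G29670 and AT1G29660 reached the floor of 50 in clean root arrays alone, so their direction is partly fixed by their choice. The call of AT1G04800 was lost without Col-0 replicate 1, scl3 replicate 2 or SCL3 OE replicate 1, and that of AT2G41090 without any 1 clean root array or SCL3 OE replicate 3.

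AT5G01740 was the 1 named gene called lower in the planned fit, with 122, 72.6 and 69.5 in SCL3 OE, against 151 and 135 in scl3 and 181 and 126 in Col-0. The lowest Col-0 array was close to the highest SCL3 OE array. AT5G01740 had a limma adjusted p of 0.03187 without the filter. It fell by 0.78 ± 0.22 (log2, SE, limma adjusted p = 0.01312), and the call was lost without Col-0 replicate 1 (0.05026), SCL3 OE replicate 2 (0.05257) or SCL3 OE replicate 3 (0.06013). Among unnamed members chosen after their values were seen, 252971_at had 6.89, 2.96 and 36 in SCL3 OE, against 230 and 266 in scl3 and 258 and 189 in Col-0. It reached the signal floor of the rule in clean root arrays alone, so its direction is partly fixed by its choice. Probe set 266421_at had 229, 248 and 251 in SCL3 OE, against 502 and 443 in scl3 and 435 and 483 in Col-0. In both the clean roots were high and close to one another.

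**Figure D4:**
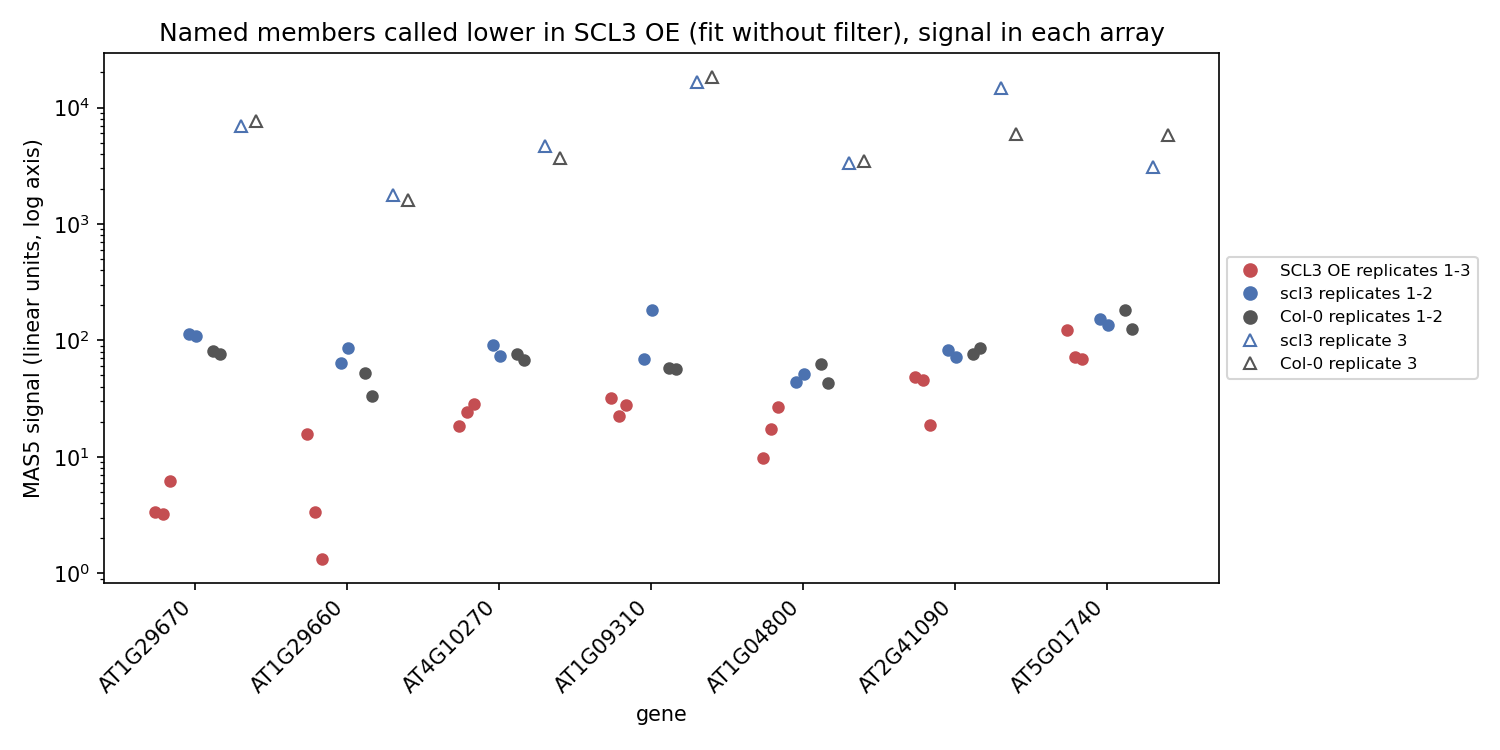
Signal (MAS5, log axis) of the 7 named members called lower in SCL3 OE without the filter, 1 point per array, in the same order of groups as for the photosynthesis genes. AT1G29670 lies at 3.23 to 6.22 in SCL3 OE and at 76.8 to 113 in the clean roots. Except for AT5G01740, these members reached the signal floor of the rule in clean root arrays alone, so their direction is partly fixed by their choice.

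The SCL3 OE mean was also placed on the linear scale between the clean root mean (0%) and the replicate 3 mean (100%) of each member. The median position was 0.83%, and members ran from -3.20% to 3.89%, with 36 below 0. RCA stood at 2.99%, LHCB4.1 at 2.04%, HPR at 2.02%, PSAN at 1.77%, PSBY at 1.3%, PSBW at 0.93%, LHCB4.2 at 0.86%, PSAE-1 at 0.48%, SBPASE at 0.24% and PRK at -0.02%. The members on the photosynthesis lists thus did not share 1 position. These values use the arrays that chose the members and are a description. The rule keeps the positions small, since each replicate 3 signal must be at least 16 times every SCL3 OE signal.

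**Figure D5:**
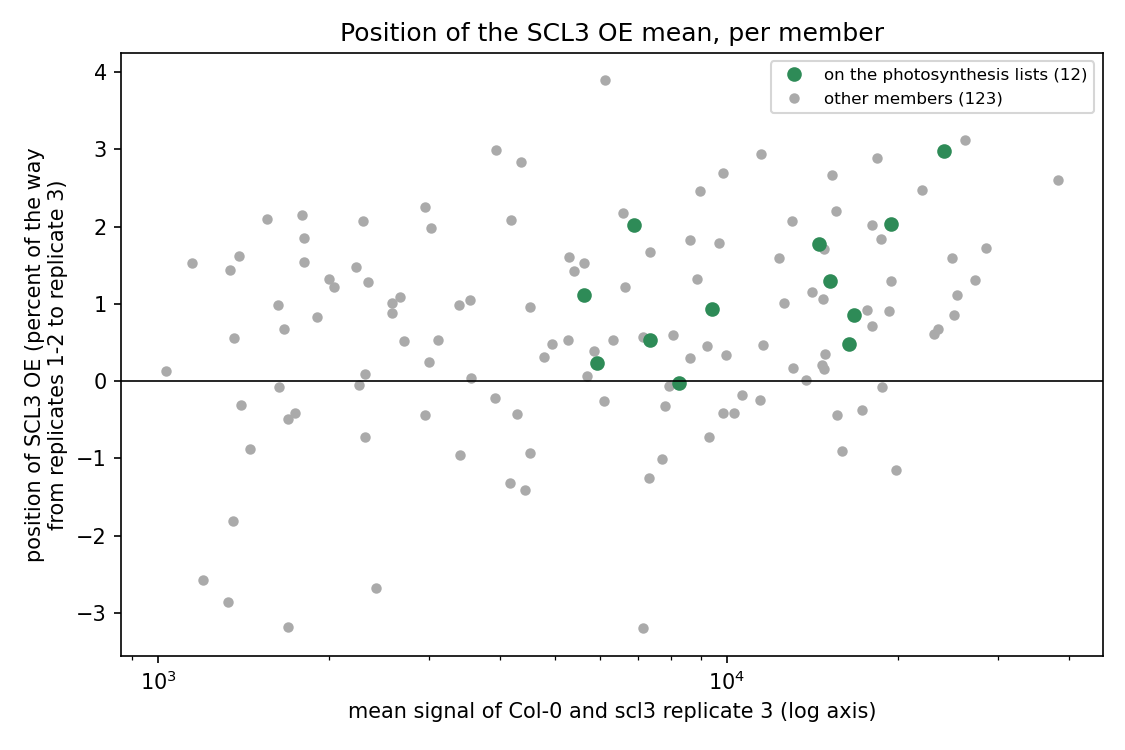
Position of the SCL3 OE mean (percent of the way from the clean roots to replicate 3, vertical axis) against the replicate 3 mean signal (log axis), with the 12 members on the photosynthesis lists in green and the other 123 in grey. List members range from -0.02% to 2.99%, and all members from -3.20% to 3.89%.

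Transcripts of the plastid genome, which are abundant in leaves too, were mostly lower in SCL3 OE. Of 69 named plastid probe sets, SCL3 OE lay above the clean roots for 4 and below for 35, with a median log2 difference of -0.77. Without the filter limma called 3 higher and 36 lower. Over all plant probe sets 17.9% lay above and 18.5% below, and without the filter 14.6% were called higher and 15% lower. PYK10, an abundant root beta-glucosidase of endoplasmic reticulum bodies, had 19104, 17762 and 16894 in SCL3 OE, against 32446 and 31972 in scl3 and 31733 and 36755 in Col-0, and it read 16618 in scl3 and 17214 in Col-0 replicate 3. The summed root hair markers were 2228 to 2398 in SCL3 OE and 2237 to 2979 in the clean roots, and in limma EXPA7 rose by 0.48 on the log2 scale (adjusted p = 0.003921) while EXPA18 fell by 0.48 (adjusted p = 0.0004142). The cortex genes JKD and AT1G62500 summed to 247 to 286 in SCL3 OE and 205 to 298 in the clean roots, where JKD rose by 0.88 (limma adjusted p = 0.0009667) and AT1G62500 fell by 0.92 (limma adjusted p = 0.00162). LHW, a stele gene, read 409 to 456 in SCL3 OE and 544 to 692 in the clean roots. The part of these shifts in the member signals was not tested.

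SCL3 OE was also set against each root genotype alone, in comparisons that share the SCL3 OE arrays. Against scl3 replicates 1 and 2, limma called 66 members without the filter, 53 higher and 13 lower, where 24.7% of all probe sets were called, 12.1% higher and 12.6% lower. Against Col-0 replicates 1 and 2 it called 63, 52 higher and 11 lower, where 22.8% were called, 11.1% higher and 11.6% lower. The planned fit gave 49 of 55 members, 46 higher and 3 lower, for each. The backgrounds of that fit were 40.3% against scl3 (20.7% higher and 19.6% lower) and 37.8% against Col-0 (19.6% higher and 18.2% lower).

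No member was called between scl3 and Col-0 replicates 1 and 2. With the filter, 7 of 55 members had an unadjusted p under 0.05 and 0 passed adjustment in limma, where 6.15% of the probe sets tested had such a p and 0.00733% were called. Without it, 6 of 135 had an unadjusted p under 0.05 and 0 passed, where 5.90% of all had such a p and 0.0044% were called. Over the 135 members the log2 difference of scl3 minus Col-0 ran from -1.13 to 1.26, with a median of -0.06 and a median SE of 0.37, so 2 arrays a group leave differences of this size unresolved. CCL had 147 and 156 in scl3, against 107 and 114 in Col-0, a log2 difference of 0.46 that did not pass (limma adjusted p = 0.8086). PSBW had a difference of 0.40 (limma adjusted p = 0.856) and AT1G51400 one of -0.38 (limma adjusted p = 0.8126).

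Within replicate 3, the scl3 signal divided by that of Col-0 had a median of 0.95 over the members and ran from 0.53 to 2.48, from 1 array each and so with no test. It was above 1 for 52 members and below 1 for 83, and at least 2-fold for 4. AT2G41090 read 14688 in scl3 and 5912 in Col-0, AT2G25510 read 20742 in scl3 and 8714 in Col-0, and PIFI read 4111 in scl3 and 2642 in Col-0. In the other direction AT5G01740 read 3082 in scl3 and 5770 in Col-0, AT5G02160 read 3570 in scl3 and 5961 in Col-0, and PORB read 4526 in scl3 and 6708 in Col-0. The larger share of members thus differed by less than 2-fold between the 2 arrays.

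The arrays of a group were not interchangeable for these transcripts. Among the SCL3 OE arrays, replicate 1 was the highest for 80 members and replicate 3 the lowest for 91. Among the clean roots, replicate 2 of scl3 was the highest for 46 and replicate 2 of Col-0 for 45, and scl3 replicate 1 was the lowest for 55. Across members, the log2 replicate 3 mean correlated with the log2 SCL3 OE mean at r = 0.65 and with the log2 clean root mean at r = 0.64, a description over 135 probe sets that share arrays and probe brightness. When scl3 and Col-0 replicate 3 were put back as ordinary replicates, 0 members were called in any of the SCL3 OE comparisons, and 1 of the 111 tested had an unadjusted p under 0.05 in limma. With a separate term for those 2 arrays, limma called 77 of 111, 66 higher and 11 lower. The shares of all probe sets called in these fits are not given here, so the counts have no background beside them.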

How the data were processed

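The deposited values are linear intensities, 1 for each probe set and array. The submitters' processing notes name MAS5 and Affymetrix Expression Console (version 1.1). The arrays share a trimmed mean of 499.8, and array medians ran from 158.5 to 191.1. The number of arrays limits the precision. No detection calls were used here.

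Groups came from the sample titles. The 64 control probe sets were left out. Log2(signal + 1) of 7 arrays (3 SCL3 OE, 2 scl3, 2 Col-0) was fitted on group alone in limma (version 3.58.1, R 4.3.3), with an intensity trend, 2-sided tests and Benjamini-Hochberg adjustment over the 13647 probe sets whose mean log2 signal exceeded the 40th percentile (6.68). The script was tested on simulated data. An exact 2-sided permutation test of 3 against 4 arrays cannot go below p = 0.0571, the value reached by each member without overlap between groups.

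Members and gene lists were chosen with earlier results of these data known. Named genes were the brightest members of each list, those called with the largest differences, those brightest in the roots, those next to the threshold, and those with the extreme scl3 to Col-0 values, unless the text says otherwise. Symbols came from RefSeq's TAIR10.1 table. Promoter sequences were not analysed here. Figures were drawn with matplotlib 3.10.9.

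Same-numbered arrays correlated at 0.01 to 0.16 in their deviations from the group means, so the numbers were not taken to pair the samples. Alternatives were an added constant of 16 or 32, other filters, no trend, quantile normalization, all 9 arrays, a replicate block and each array left out.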

Additional observations from a re-analysis of the deposited data

How the results depend on the processing

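The planned fit called 49 of the 55 members tested in each SCL3 OE comparison and 0 between scl3 and Col-0. Of all probe sets tested in that fit, 46.8% were called against both root genotypes, 37.8% against Col-0 and 40.3% against scl3. Apart from the fit without the filter, such shares are not given for the settings below, so their member counts have no background. Leaving out 1 array at a time gave 44 to 51 members for SCL3 OE against both root genotypes, 41 to 49 against Col-0, 40 to 51 against scl3 and 0 to 0 for scl3 against Col-0. With the replicate number as a block, limma called 50 members against both, 47 against Col-0, 49 against scl3 and 0 between scl3 and Col-0. The block changed no call among the 14 named genes tested.

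With all 9 arrays and group as the only term, 0 members were called in each SCL3 OE comparison, and 12 named genes changed sign: RCA (-0.32), LHCB4.1 (-0.74), LHCB4.2 (-1.13), PSAN (-0.60), PSAE-1 (-1.57), PSBY (-0.92), PSBW (-1.32), PSB27 (-0.84), AT1G51400 (-0.69), AT2G26500 (-1.03), AT4G16980 (-1.12) and UGT88A1 (-0.98), in log2 units. That setting averages the replicate 3 arrays, which chose the members, into the scl3 and Col-0 means. With a separate term for those arrays the counts were 77 against both and 75 against Col-0. More members were tested with all 9 arrays, since the filter then averaged the replicate 3 signals that chose them. These counts are therefore not comparable with those of the planned fit. Without the filter 78 were called against both, and 80 with an added constant of 32 as well, a setting chosen after seeing the data. A filter at the 60th percentile left 13 members to test and called 13 against both, 13 against Col-0 and 12 against scl3. Added constants of 16 and 32, no trend and quantile normalization kept each count within 1.5 times.

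The rule gave 293 members at a ratio of at least 8, 68 at 32 and 84 with a floor of 100. Of the 119 members that reached 50 in a clean root array, 55 were called higher and 17 lower without the filter, a count added after seeing the data. Dim members limit the calls: 80 of 135 fell below the filter.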
